A study of Rattus norvegicus with 4 samples.

Results

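Ccn2, Col1a1, Fn1 and Timp1 encode secreted proteins of the extracellular matrix and of its turnover, and they were followed here in rat liver at 1 h after the common bile duct was tied. They are the genes named by all probes that the array's annotation gives a single symbol of these 4. They comprise 6 of the 1936 probes on the array and 4 of the 958 genes with a single symbol: Ccn2 and Timp1 have 1 probe each, and Col1a1 and Fn1 have 2 each. Male Sprague-Dawley rats had the common bile duct ligated, or a sham operation in which the duct was laid bare but not tied, and both groups were opened under ether. No strain difference, allele or drug separates the groups. RNA from the right lateral liver lobes of groups of 3 rats was pooled, and ligated and sham RNA were hybridised together on each of 4 two-colour cDNA arrays. Dyes were swapped: ligated RNA was labelled with Cy5 for arrays 1 and 3 and with Cy3 for arrays 2 and 4. The labels do not say whether the arrays shared RNA pools. The p-values below therefore rest on the spread between arrays, which may be technical, and not on that between rats. In the main fit this spread was pooled largely over all probes, so a p-value says little about the spread of its own probe.

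Ligation of the bile duct is a classical route to biliary fibrosis in rodents, in which hepatic stellate cells and portal fibroblasts turn into myofibroblasts that deposit collagen. Ccn2, the connective tissue growth factor, is a matricellular protein that is induced by TGF-β and by the YAP-TEAD pathway and that enhances matrix production. Col1a1 is a chain of type I collagen, the main collagen of scars. Fn1 encodes fibronectin, which hepatocytes secrete into plasma and other cells assemble into matrix, and Timp1 encodes an inhibitor of the metalloproteinases that degrade matrix.

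The promoter strands of Ccn2, an early-response gene, and of Timp1, a protease inhibitor gene, are printed side by side. Both hold the core bound by TEAD factors, 3 times in Ccn2 and 1 time in Timp1. Each also holds 1 site of another kind. Of the 4 genes, 2 matched RefSeq's promoter table (GRCr8). Each line gives the 250 bases before the gene's start, 5′ to 3′ on the gene's strand, from chr1:22624615-22624864 (minus strand) for Ccn2 and from chrX:3771123-3771372 (minus strand) for Timp1. Capitals mark every match, on either strand, to GGAATG (the core bound by TEAD factors), TGANTCA or TGAGTAA (a consensus and a variant site of AP-1) and CAGAC (a SMAD box).
Ccn2: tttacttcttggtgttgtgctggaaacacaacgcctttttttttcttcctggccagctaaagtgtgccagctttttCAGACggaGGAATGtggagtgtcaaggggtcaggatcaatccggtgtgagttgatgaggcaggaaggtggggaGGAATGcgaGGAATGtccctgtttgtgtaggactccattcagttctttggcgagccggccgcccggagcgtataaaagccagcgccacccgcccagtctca
Timp1: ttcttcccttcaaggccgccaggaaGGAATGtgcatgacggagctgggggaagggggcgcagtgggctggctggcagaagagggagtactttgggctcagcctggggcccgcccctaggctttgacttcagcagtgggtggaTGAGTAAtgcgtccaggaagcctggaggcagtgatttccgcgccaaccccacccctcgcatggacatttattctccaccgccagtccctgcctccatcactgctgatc
The Ccn2 strand held 3 copies of GGAATG, which begin 166, 101 and 92 bases before the start, and 1 CAGAC at 174 bases. The Timp1 strand held 1 GGAATG at 225 bases and 1 TGAGTAA at 108 bases. Neither window held TGANTCA, and the matches do not overlap. Among 33469 windows of the same length, 12.1% held GGAATG at least once and 0.0807% held it at least 3 times, while TGAGTAA was in 2.38%, TGANTCA in 6.34% and CAGAC in 42.9%. A match describes the letters and does not show that a factor binds there.

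The deposited values are log ratios whose base the sources used here do not give, so differences are stated on the deposited log scale. Nor do the labels say which channel was divided by which. The ratios were read as ligated over sham, since the labels list sham as the first channel and ligated as the second, and all signs below would be opposite under the inverse ratio. The array medians were -0.88, 0.75, -0.73 and 0.87 and followed the dye, so each array was centred on its median, and limma was fitted across all probes with terms for operation and dye. A probe passed at a Benjamini-Hochberg adjusted p under 0.05, errors are standard errors (SE), and precision is limited by there being 4 arrays. Over all probes 5.73% passed (18 higher and 93 lower), and 60 of the 93 lower calls lay in block 3, the third of 16 equal runs of consecutive probe numbers. The ratios carry no level of expression, so the tissue could not be checked against marker levels.

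Of the 6 probes, 4 passed: Ccn2 and 1 of the Col1a1 probes rose, both Fn1 probes fell, and the other Col1a1 probe and Timp1 did not pass. For the array as a whole 0.93% of probes passed as higher and 4.8% as lower. Liver tissue was measured in bulk, so a change in the number of cells of a type and in RNA per cell cannot be told apart. In the order of their estimates, Ccn2 and Col1a1 probe 1306 came highest and differed by far less than their SE. Timp1 and Col1a1 probe 1183 followed, and Fn1 probes 1517 and 298 lay lowest.

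**Figure D1:**
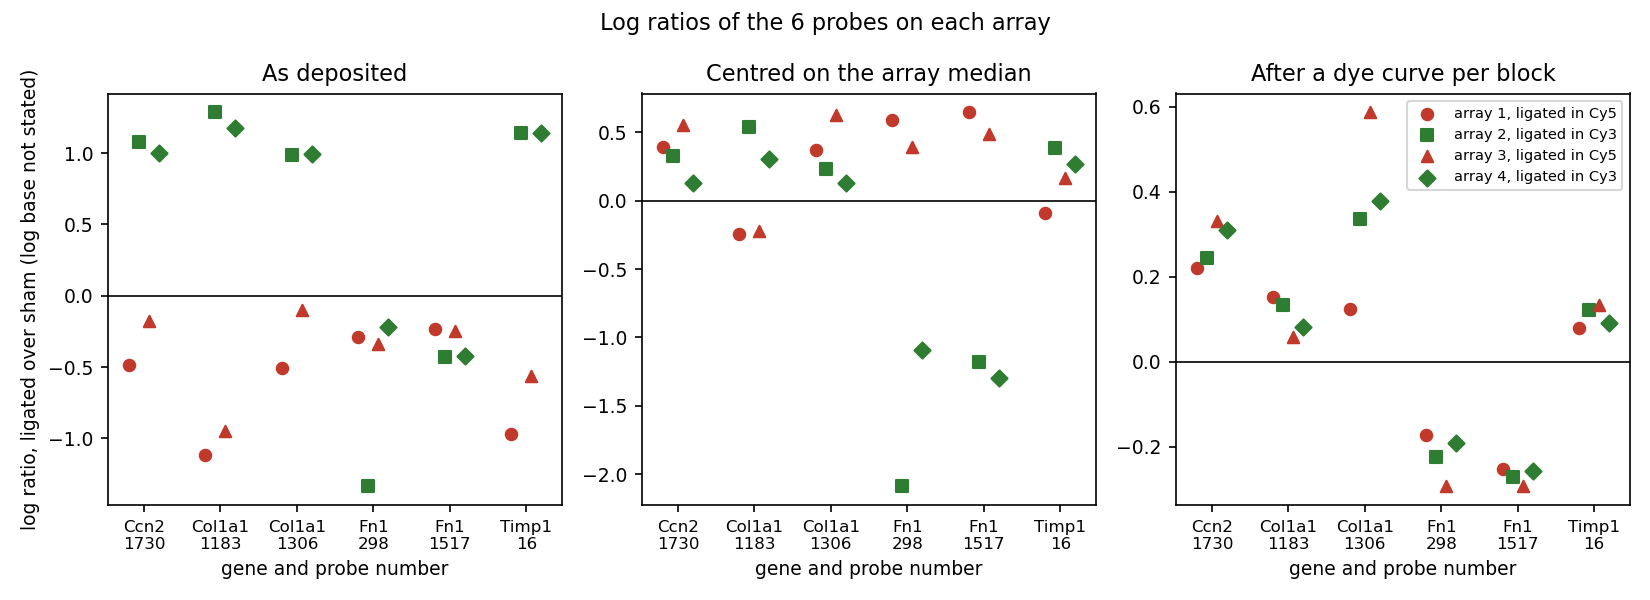
Log ratios of ligated over sham (vertical axes, base not stated, scales differ between panels) of the 6 probes on each array, as deposited (left), centred on the array median (middle) and after subtraction of a dye curve within each block (right); colour gives the dye of the ligated sample and symbols the array. As deposited, Ccn2, Col1a1 and Timp1 part by dye while Fn1 lies below 0 on every array; after the dye curve each probe has the same sign on all 4 arrays.

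Ccn2 had centred log ratios of 0.39, 0.33, 0.55 and 0.13 on arrays 1 to 4. All 4 were above 0, which held for 1.5% of all probes. Both arrays with the ligated sample in Cy5 lay higher than both with it in Cy3. The estimate was 0.35 ± 0.08 (SE, n = 4 arrays; limma adjusted p = 0.00361), rank 14 from the top among all probes. It corresponds to 1.28-fold if the base is 2, 1.42-fold if it is e and 2.24-fold if it is 10. As deposited the same probe had -0.48, 1.08, -0.18 and 1.00, so that the arrays with the ligated sample in Cy5 lay below 0 and those with it in Cy3 above. The common sign therefore appears only after centring. Averages of 1 array of each dye orientation, which cancel a dye effect without a model, ranged from 0.26 to 0.44 over the 4 possible pairs.

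The size of the Ccn2 estimate moved with the treatment of position and dye, and its call depended on centring and on the arrays used. The 60 probes nearest in number to Ccn2 had a median estimate of 0.048. With the median of these neighbours subtracted on each array, Ccn2 had 0.25 ± 0.05 (limma adjusted p = 0.0232), but its values parted by dye, at 0.53 on both arrays 1 and 3 and at -0.019 and -0.038 on arrays 2 and 4. After a dye curve per block, in which each array's values are adjusted along the size of the dye effect within each of the 16 runs, Ccn2 had 0.22, 0.24, 0.33 and 0.31 on arrays 1 to 4. The estimate was then 0.28 ± 0.04 (limma adjusted p = 0.000964). It passed neither as deposited without centring (0.36 ± 0.07, limma adjusted p = 0.242) nor without replicate 1 or 3 (0.39 and 0.31). The estimate without centring was close to that of the main fit. There the spread pooled over probes added 2.6 degrees of freedom to the test, against 76.2 in the main fit. Without replicate 1 or 3 all probes shared an SE of 0.144.

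Col1a1 gave different calls at its probes. At probe 1306 the centred log ratios were 0.37, 0.23, 0.63 and 0.13 on arrays 1 to 4. All were above 0, with the highest and the lowest on the same arrays as for Ccn2. This probe rose by 0.34 ± 0.08 (limma adjusted p = 0.00526), and the averages over pairs of opposite orientation ran from 0.25 to 0.43. At probe 1183 the values were -0.24, 0.53, -0.22 and 0.31, below 0 on both arrays with the ligated sample in Cy5 and above 0 on both with it in Cy3. Its estimate was 0.095 ± 0.084 (95% confidence interval -0.072 to 0.26; limma adjusted p = 0.812).

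The difference between the Col1a1 probes, 1306 minus 1183, was 0.62, -0.30, 0.84 and -0.18 on arrays 1 to 4, with a mean of 0.24 ± 0.57 (SD, n = 4 arrays; exact two-sided sign permutation p = 0.5). With 4 arrays this test cannot reach 0.05 and so does not show whether the probes differ. The differences part by dye, above 0 with the ligated sample in Cy5 and below 0 with it in Cy3. After a dye curve per array they were above 0 on 4 of 4 arrays (0.12, 0.16, 0.36 and 0.31), with the smallest p that this test can give. That curve removes a dye effect computed from the same 4 values, which brings the arrays together by construction, so the shared sign is no separate evidence. The averaged value of the probes did not pass (0.22 ± 0.07, limma adjusted p = 0.121). After the dye curve per block, probe 1306 had 0.12, 0.34, 0.59 and 0.38 and passed (0.36 ± 0.06, limma adjusted p = 0.00474). Probe 1183 had 0.15, 0.13, 0.058 and 0.082, above 0 on every array as well, and did not pass (0.11 ± 0.04, limma adjusted p = 0.113). Without replicate 1 or 3 probe 1306 had 0.40 and 0.28 and lost its call (limma adjusted p = 0.218 and 0.999), as it did without centring (0.34 ± 0.08, adjusted p = 0.300).

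Fn1 showed another pattern, visible before any adjustment. Probe 1517 had deposited log ratios of -0.23, -0.43, -0.24 and -0.42 on arrays 1 to 4. It lay below 0 in both dye orientations, as did 5.94% of all probes, and varied by an SD of 0.11 over the 4 arrays. The array medians followed the dye, so a sign shared as deposited depends on the dye term and is no separate evidence of a fall. Itga1 probe 1426 (-0.041, -0.051, -0.11 and -0.19) and P4hb probe 1533 (-0.099, -0.29, -0.13 and -0.24) also lay below 0 on every array. Neither passed on centred values (limma adjusted p = 0.772 and 0.210). Probe 298 had -0.29, -1.33, -0.33 and -0.22 as deposited, also below 0 on 4 of 4, with array 2 far below the others. The dye term of the deposited values was 0.09 for probe 1517 and 0.23 for probe 298, against -0.69 for Ccn2, -0.65 and -1.13 for the Col1a1 probes and -0.95 for Timp1. Only 10.2% and 2.38% of probes had a higher dye term than the Fn1 probes.

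After centring, the Fn1 estimates were -0.34 ± 0.08 at probe 1517 (limma adjusted p = 0.00562) and -0.55 ± 0.09 at probe 298 (adjusted p = 1.28e-05), and the latter was the fourth lowest of all probes. These SEs are pooled largely over all probes. From its own arrays alone, probe 298 had an SE of 0.25 and probe 1517 of 0.05. With a robust prior probe 298 had an SE of 0.13 and did not pass (limma adjusted p = 0.0586). Centring shifted the Fn1 values by the array medians, so that they were above 0 on arrays 1 and 3 (0.65 and 0.48 for probe 1517) and below 0 on arrays 2 and 4 (-1.18 and -1.30). Averages over pairs of opposite orientation lay between -0.40 and -0.27 for probe 1517 and between -0.85 and -0.25 for probe 298, the wider range being that of the probe with the low value on array 2. Without replicate 2 probe 298 had -0.30, and without replicate 4, which keeps the low value on array 2, it had -0.80. These fits leave 1 array with the ligated sample in Cy3, and all probes share 1 SE in them.

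The Fn1 probe 298 lies in block 3, where the median estimate of all probes was -0.29, and its 60 nearest neighbours had a median of -0.30. On array 2 the median deviation of block 3 from the array's dye curve was -0.83. Relative to the neighbours probe 298 had -0.29 ± 0.05 (limma adjusted p = 0.0120), and with the curve fitted within blocks it had -0.22 ± 0.04 (adjusted p = 0.00442). Probe 1517 lies in block 13, where the neighbours' median was -0.023. It had -0.39 ± 0.05 relative to its neighbours and -0.27 ± 0.03 with the block curve (limma adjusted p = 0.00427 and 0.000748). The probes came closer together with the block curve: 1517 minus 298 was 0.21 ± 0.48 on centred values and -0.048 ± 0.035 after the curve (SD, n = 4 arrays; exact two-sided sign permutation p = 0.625 and 0.250). With the probes averaged, Fn1 fell by 0.44 ± 0.08 on centred values (limma adjusted p = 0.00251). Calls were lost without centring (adjusted p = 0.133 for probe 1517 and 0.514 for probe 298) and without replicate 3 (-0.30 and -0.50, adjusted p = 0.999 and 0.0744). Probe 1517 also lost its call without replicate 1 (-0.38, adjusted p = 0.264).

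**Figure D2:**
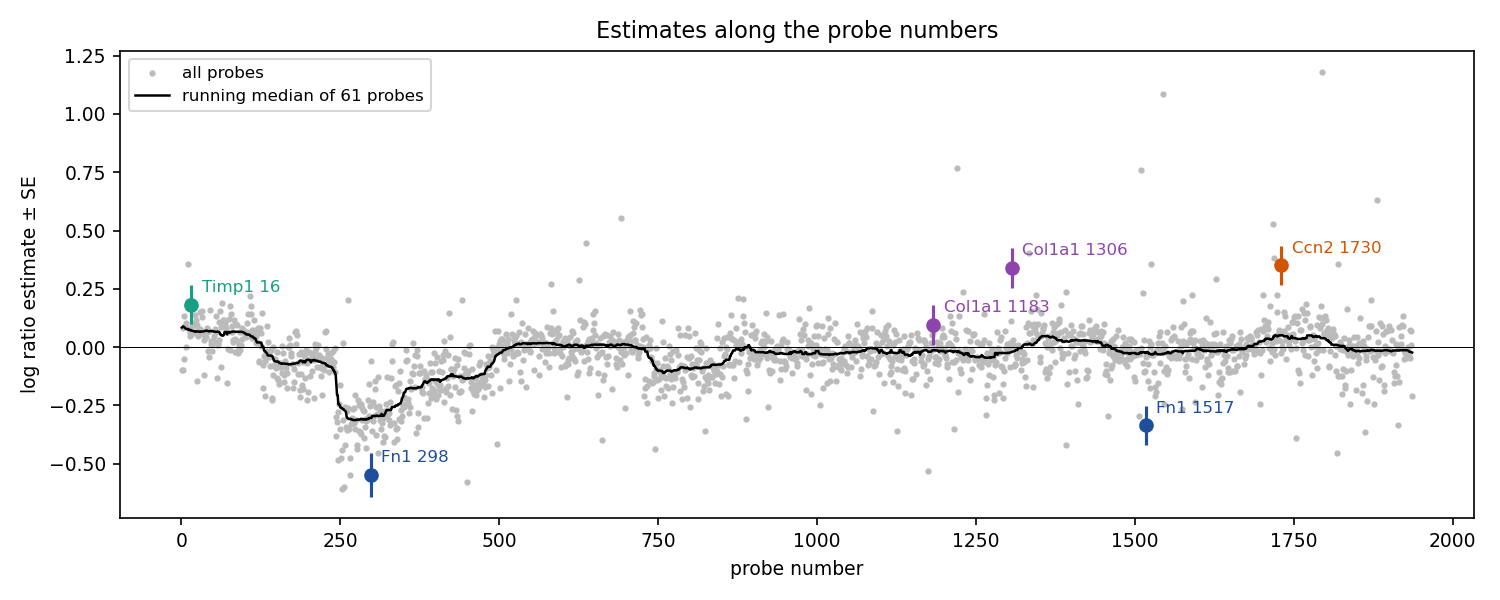
Estimates of ligated over sham (log ratio, vertical axis) against probe number (horizontal axis) for all probes (grey), with the running median of 61 probes (line) and the 6 probes in colour with their SE. Fn1 probe 298 sits in the trough of block 3, where its neighbours' median is -0.30, whereas Fn1 probe 1517, Col1a1 probe 1306 and Ccn2 stand apart from neighbours near 0.

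Timp1 did not pass. Its probe had centred log ratios of -0.090, 0.39, 0.17 and 0.27 on arrays 1 to 4. Of these 3 were above 0, and array 1 lay just below. The estimate was 0.18 ± 0.08 (95% confidence interval 0.015 to 0.35; unadjusted p = 0.0331, limma adjusted p = 0.272), which ranks 37 from the top. Its 60 neighbours had a median of 0.065, and the values relative to these neighbours and after the block curve were 0.10 ± 0.05 and 0.11 ± 0.03 (limma adjusted p = 0.329 and 0.101). After that curve all 4 arrays were above 0, at 0.080, 0.12, 0.13 and 0.091.

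**Figure D3:**
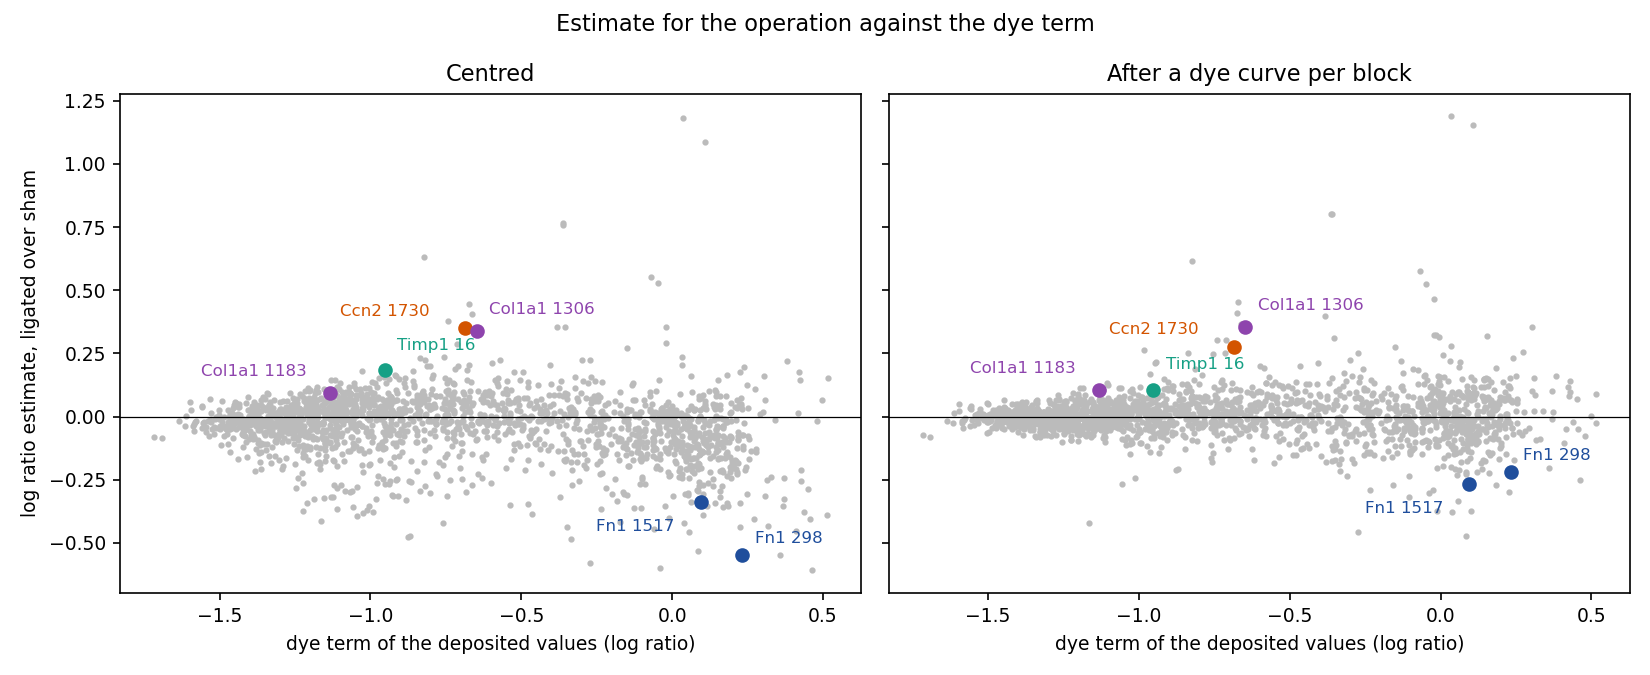
Estimate for the operation (log ratio, vertical axis) against the dye term of the deposited values (log ratio, horizontal axis) for all probes (grey) and the 6 probes (colour), on centred values (left) and after a dye curve per block (right). Ccn2 and Col1a1 probe 1306 lie side by side at dye terms of -0.69 and -0.65, and the Fn1 probes lie at dye terms of 0.09 and 0.23 and below 0 in both panels.

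Within the group, each probe kept its sign in all 4 averages over pairs of opposite orientation, which 37.7% of all probes did, and on all 4 arrays after the dye curve per block, which 36.1% did. The dye curve uses a dye effect computed from the same 4 values, so the spread between arrays after it is smaller by construction. After this curve the same 4 of the 6 probes passed, against 7.02% of all probes (3.67% higher and 3.36% lower). Relative to neighbours they passed too, against 3.67% of all probes, and without centring 0 of the 6 passed (4 at an unadjusted p under 0.05), against 0.155%. Nor did any of the 6 pass after quantile normalization (12 of all probes passed) or after a dye curve per array without blocks (7 passed), where 5 of the 6 had an unadjusted p under 0.05. Of all 1936 probes, 176 had an unadjusted p under 0.05 without centring, 177 after quantile normalization and 174 after the dye curve per array.

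The likeness of patterns was described by the Euclidean distance between the centred log ratios over 4 arrays. Centred values still hold the dye effect and the shift of block 3, so near probes may share a dye term or block and not a response. Of the 1431 single-symbol probes of other genes, the one nearest to Ccn2 was Col1a1 probe 1306 (distance 0.12), and Ccn2 was in turn the nearest to that probe. The next for both were Mapk6, an atypical MAP kinase (0.14 and 0.19), and Fos, a subunit of AP-1 (0.14 and 0.21). For Fn1 probe 1517 the nearest were Serpina3n, a secreted protease inhibitor (0.12), Pgrmc1 (0.14) and Dync1i2 (0.16). For Fn1 probe 298 they were Dusp1, Ptp4a2 and Ldha (0.30, 0.33 and 0.43), whose probes 291, 318 and 310 lie in block 3 like probe 298 itself. For Col1a1 probe 1183 they were Vegfc, Prkce and Rps6kb1 (0.018, 0.092 and 0.096), and for Timp1 Hmox2, Col2a1 and Sbf1 (0.13, 0.13 and 0.15), none of which passed. The nearest probes have estimates close to that of the member probe by construction, so their calls are no separate result. Among these 3 nearest genes the Col1a1 probes had none in common, nor did the Fn1 probes. With 3 taken out of 1430 probes for each, a lack of overlap does not show that the probes of a gene differ. The dye terms also differed, at -0.65 and -1.13 for the Col1a1 probes and 0.09 and 0.23 for the Fn1 probes. The part of dye in these distances was not tested.

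Close relatives of these genes did not pass. Timp2, another metalloproteinase inhibitor, had 0.058 ± 0.085 (limma adjusted p = 0.971), with centred values of -0.084, 0.25, 0.17 and -0.11 on arrays 1 to 4. Of the other fibrillar collagens, Col5a2 had 0.022 ± 0.084 and Col2a1, the collagen of cartilage, had 0.13 ± 0.08 (limma adjusted p = 0.991 and 0.567). Ccn2 was the one measured member of its family.

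Of 144 genes in 4 lists of matrix biology, 33 were measured by 48 probes, of which 2 were higher and 3 lower, in a list that holds the 4 genes described above (5.73% of all probes passed). The median estimate of these probes was -0.022, beside -0.020 over all probes. Without the 4 genes described above, 42 probes of 29 genes gave 0 higher and 1 lower call, beside 0.93% and 4.8% of all probes. That call was Ctsb, the lysosomal protease cathepsin B, whose block 3 probe fell by 0.38 ± 0.09 (limma adjusted p = 0.00562), but had -0.022 ± 0.036 with the block curve (adjusted p = 0.812). After the dye curve per block these 42 probes gave 1 higher call (A2m) and 2 lower calls (Mmp12 and Vtn). Over all probes 3.67% were higher and 3.36% lower after that curve, so such calls do not set these probes apart from the array.

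The list of collagens and matrix proteins had 6 measured genes with 10 probes, of which 1 was higher (Col1a1) and 2 were lower (Fn1). Vtn, vitronectin, an adhesive plasma protein made by hepatocytes, did not pass at probe 1278 (-0.23 ± 0.08) or probe 1409 (-0.14 ± 0.08; limma adjusted p = 0.105 and 0.517). With the block curve subtracted, probe 1278 fell by 0.15 ± 0.04 (limma adjusted p = 0.0343), while probe 1409 had -0.086 ± 0.038 (adjusted p = 0.224). The matricellular and TGF-β list had 9 measured genes with 14 probes, and Ccn2 was the one that passed. The others, which include Tgfb3, Bmp6, Pdgfa, Pdgfra, Ltbp1 and Spp1 (osteopontin), lay between -0.07 and 0.10.

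In the list of matrix proteases and inhibitors 12 genes were measured by 15 probes, of which 0 were higher and 1 was lower, Ctsb. After the dye curve per block A2m, the broad protease inhibitor α2-macroglobulin, rose by 0.15 ± 0.04 (limma adjusted p = 0.0409), and Mmp12, macrophage elastase, fell by 0.18 ± 0.05 at probe 56 (adjusted p = 0.0402). Neither passed on centred values (0.16 ± 0.08 and -0.13 ± 0.08, adjusted p = 0.370 and 0.550), and the other Mmp12 probe had -0.0069 ± 0.083. Of the 9 probes for 6 matrix receptors and collagen-modifying enzymes none passed with limma on centred values or after the curve.

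**Figure D4:**
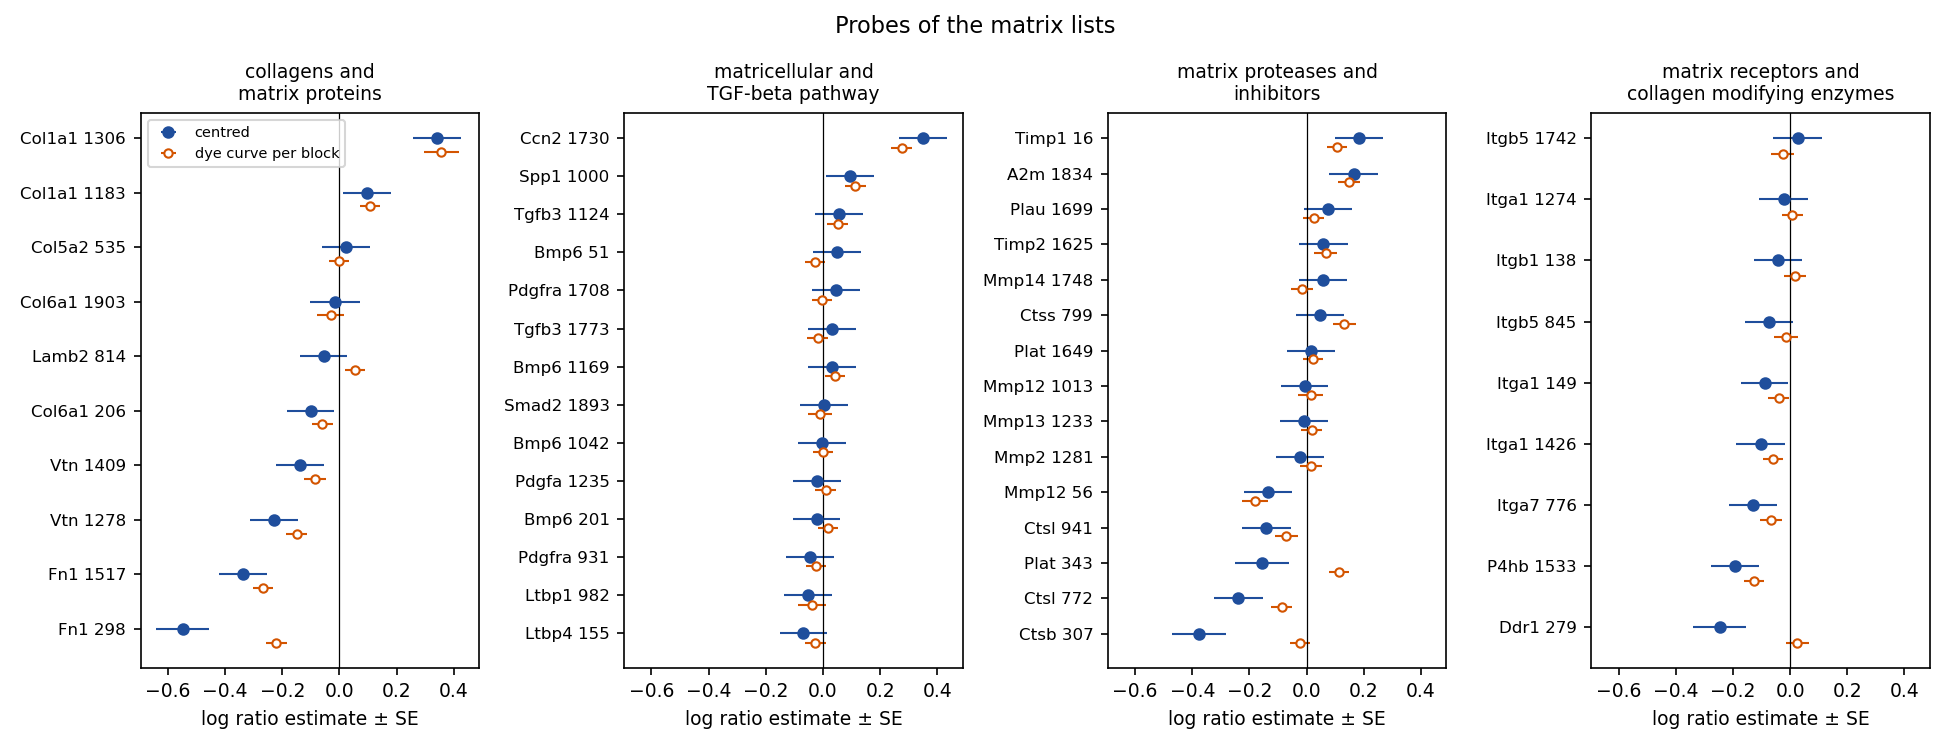
Estimates ± SE (log ratio, ligated over sham) of the 48 probes of the 4 matrix lists, on centred values (filled) and after a dye curve per block (open). Ccn2 and Col1a1 probe 1306 lie at the upper end and Fn1 at the lower end, and Ctsb, Ddr1, Plat probe 343 and Fn1 probe 298, all in block 3, move towards higher values with the curve.

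Of 5 measured genes of stellate cells and fibroblasts, 3 are among the genes described here. The others are the nerve growth factor receptor Ngfr, which fell by 0.44 ± 0.09 at its block 3 probe (limma adjusted p = 0.000585) but did not pass with the block curve (-0.17 ± 0.10, adjusted p = 0.400), and vimentin (Vim), at 0.0032 ± 0.083. No macrophage marker of the list was measured. S100a9, a neutrophil protein, had 0.021 ± 0.084 and 0.15 ± 0.08 and passed at neither probe (limma adjusted p = 0.991 and 0.475). Pf4, of platelets, had 0.14 ± 0.08 and, in block 3, -0.30 ± 0.09 (adjusted p = 0.492 and 0.0337; the latter had -0.045 ± 0.034 once the block curve was subtracted, with an adjusted p of 0.536). Of 7 endothelial probes 0 passed. Hepatocyte markers gave 0 higher and 3 lower calls over 12 probes (Cyp7a1, Cyp8b1 and Fgg), beside 4.8% lower over all probes. All 12 estimates were below 0, with a median of -0.18, beside -0.020 over all probes. With the block curve the called Fgg probe, in block 3, had -0.025 ± 0.039 (limma adjusted p = 0.808) and the median was -0.072, beside 0.0024 over all probes. The other Fgg probe, 203, had 0.0079 with that curve, so the 12 estimates no longer shared a sign. After the block curve 4 probes were lower, both of Cyp7a1, 1 of Cyp8b1 and that of Ttr, transthyretin (-0.17 ± 0.04, limma adjusted p = 0.0293), beside 3.36% of all probes. The part of other cell types in the values of Ccn2, Col1a1, Fn1 and Timp1 was not tested.

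**Figure D5:**
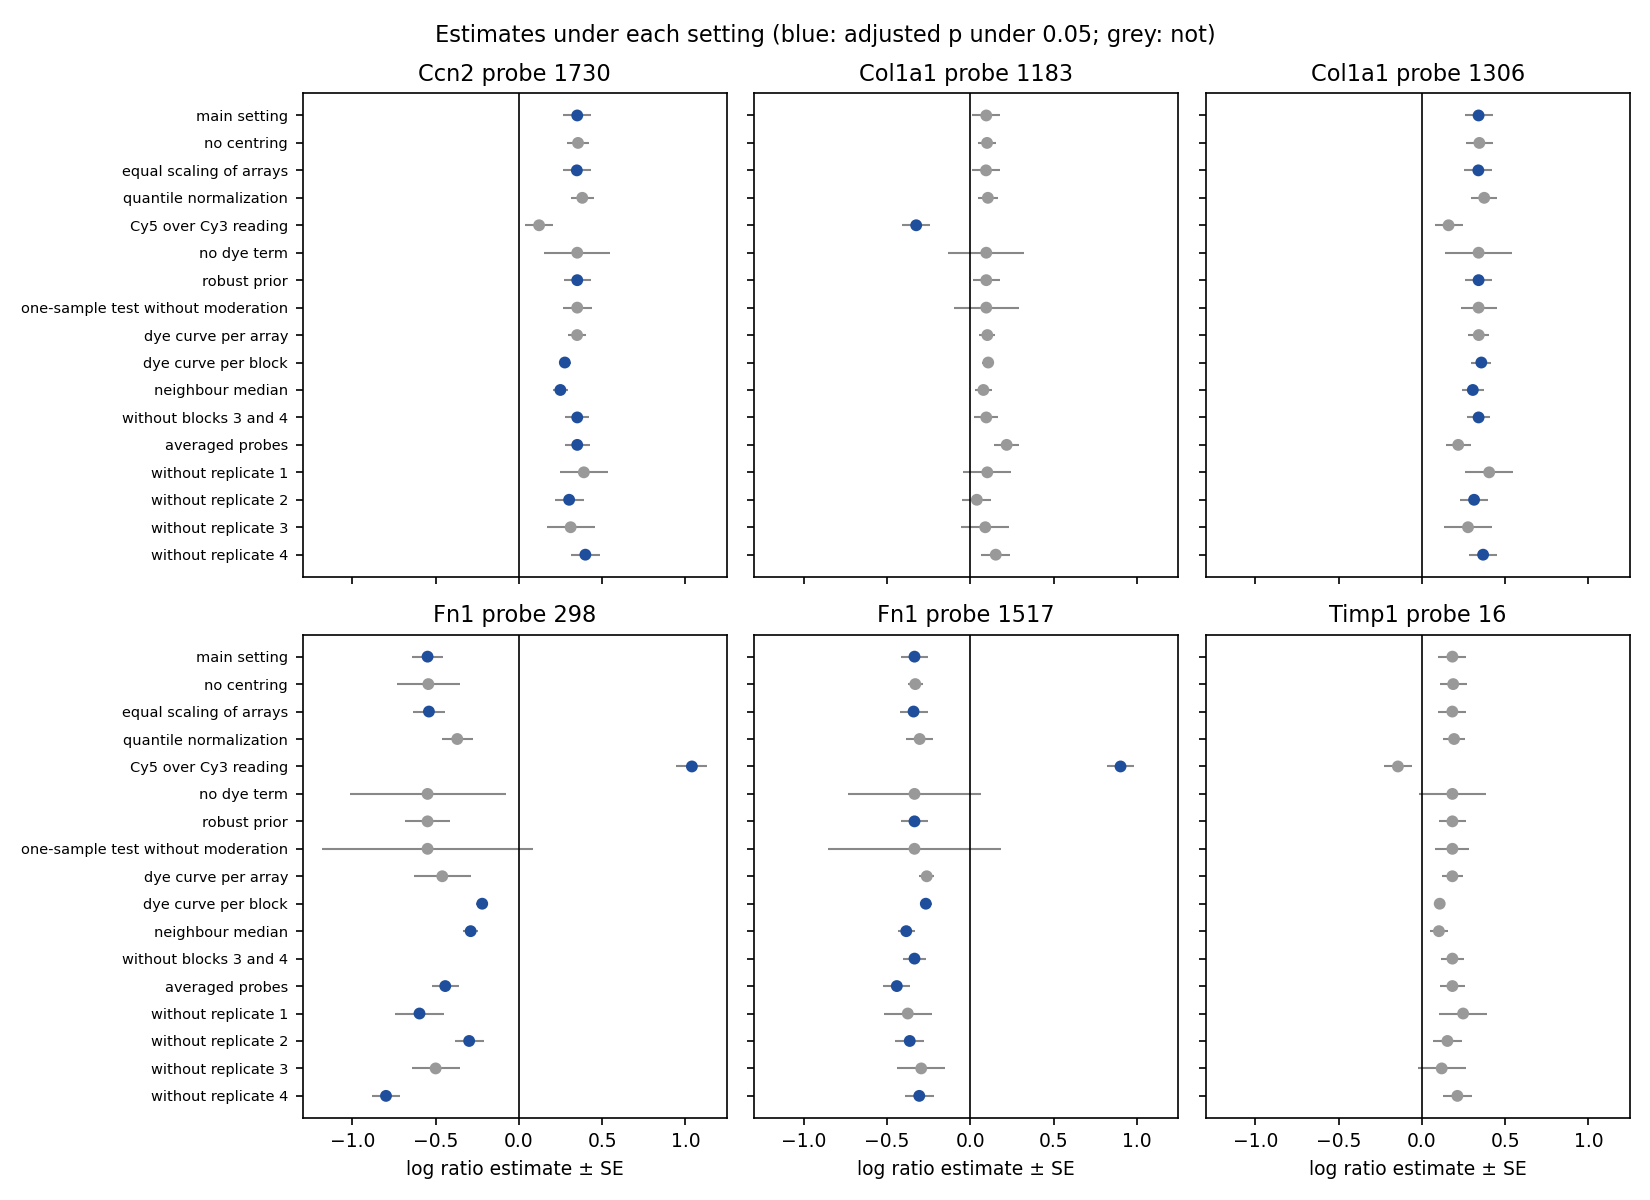
Estimates ± SE (log ratio, horizontal axis) of the 6 probes under the main setting and 16 others (vertical axis), in blue where the limma (or one-sample) adjusted p was under 0.05. Ccn2 and Col1a1 probe 1306 lie above 0 in every setting, and both Fn1 probes lie below 0 in all but the reading as Cy5 over Cy3; Fn1 probe 298 has no value without blocks 3 and 4.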

How the data were processed

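The authors deposited 1 log ratio of both channels per probe and array (1936 probes, 4 arrays, 0 missing values). Not given in the sources used here are its base and how spots were scanned, background-corrected and normalized, and spot intensities were not used here. Symbols came from the platform annotation, updated by gene ID through RefSeq (GRCr8): 1432 probes held a single symbol (1429 matched, 3 did not), 19 several and 485 none. Arrays were centred on their medians. Terms for operation and dye were fitted with lmFit and eBayes (limma 3.58.1, R 4.3.3), with Benjamini-Hochberg adjustment over all probes. This leaves 2 residual degrees of freedom, to which the prior added 76.2, so each SE comes largely from the spread pooled over probes. The scripts were tested on simulated data with independent noise of a common size. That simulation held no block shift and no outlying array, so it says nothing about how the fits handle these. The dye curve is a loess fit (span 0.75, degree 1) of each array on the dye contrast, over the array or within each of 16 blocks of consecutive probe numbers. The neighbour median uses 60 probes.

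The genes, lists, settings and block size were chosen with earlier results of these data known. Named are all probes of the 4 genes, genes of the matrix lists passing on centred values or after the block curve, close relatives, and the 3 nearest probes of other genes. Other genes named, of the marker lists and of the matrix lists, were chosen after their values were seen. Arrays of opposite dye orientation correlated at -0.93 to -0.77 across probes, and those of the same orientation at 0.86 and 0.94.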

Additional observations from a re-analysis of the deposited data

Results flagged for a closer look

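Fn1 probe 298 had 1 array far from the others: its deposited log ratio was -1.33 on array 2 and between -0.33 and -0.22 on the other arrays. The gap to the nearest array made up 0.895 of the range, above Dixon's critical value for 4 samples. Among 24 such comparisons (6 probes on 4 scales) this was the one past the limit. Chance flags about 1 in 20 where the 4 values come from 1 population and comparisons are independent. Here many probes part by dye and the scales reuse the same probes, so that rate does not apply directly. Block 3, in which the probe lies, had a median deviation of -0.83 from the dye curve on array 2. After the dye curve per block the probe had -0.23 on array 2 and -0.17, -0.29 and -0.19 on arrays 1, 3 and 4. The part of the block in the value was not tested.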

How the results depend on the processing

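Values follow in the order Ccn2, Col1a1 probe 1306, Fn1 probe 298 and Fn1 probe 1517, all of which passed on centred values. None of them passed without centring (0.36, 0.34, -0.54, -0.33), after quantile normalization (0.38, 0.37, -0.37, -0.30) or after a dye curve per array (0.35, 0.34, -0.46, -0.26). Nor did any without the dye term or in a one-sample test without moderation (0.35, 0.34, -0.55, -0.34 in both). Without the dye term, the limma SE holds the dye effect by construction. In these settings 0 of the 6 probes passed (4, 5, 5, 0 and 1 at an unadjusted p under 0.05), and over all probes 3, 12, 7, 0 and 0 passed in the order given (176, 177, 174, 5 and 10 at an unadjusted p under 0.05). The prior added 2.6 degrees of freedom without centring, 4.9 after quantile normalization and 2.9 after the dye curve per array, against 76.2 in the main fit. Read as Cy5 over Cy3, Ccn2 and Col1a1 probe 1306 had 0.12 and 0.16 and did not pass, and signs turned for Fn1 (1.04 at probe 298, 0.90 at probe 1517), Col1a1 probe 1183 (-0.33) and Timp1 (-0.14), while 1599 probes passed. With a robust prior Fn1 probe 298 (-0.55) had a limma adjusted p of 0.0586. With averaged probes Col1a1 (0.22) did not pass, and 2 of the 4 genes did, Ccn2 and Fn1. The difference between Fn1 probes turned from 0.21 to -0.048 after the dye curve per block and -0.096 relative to neighbours. Other counts over all probes were 62 (equal scaling), 67 (robust prior), 71 (neighbour median), 63 (without blocks 3 and 4) and 40 of 958 genes (averaged probes). Of the 48 probes of the matrix lists 5 passed on centred values and 0 without centring. Leaving out each array in turn gave 0.30 to 0.40 for Ccn2, 0.28 to 0.40 for Col1a1 probe 1306, -0.80 to -0.30 for Fn1 probe 298 and -0.38 to -0.30 for Fn1 probe 1517. In these fits 0 to 4 of the 6 probes passed and 12 to 241 over all probes, and all probes shared an SE, of 0.144 without replicate 1 or 3 and 0.0864 without replicate 2 or 4. Where no cause is named, the cause was not tested. Of 138 comparisons with another setting, 77 kept direction and side of the threshold (or, for counts, lay within 1.5 times), 31 kept the direction and lost the call, 6 reversed and 24 counts moved. The 77 include Col1a1 probe 1183 and Timp1, which had no call in the main setting to lose. All 31 lost calls fell on the 4 probes that passed on centred values, so the 77 overstate how stable those calls are. No paired analysis was possible because each value already is a ratio of ligated to sham within an array, and the arrays form 1 group with no second group to match by number.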
